A study of Mus musculus with 6 samples.

Results

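Fosb, Fosl2, Jun, Junb and Jund encode subunits of AP-1, the dimeric transcription factor that also contains Fos, and they were examined in the dentate gyrus of mice given a virus carrying EYFP or cFos. For each gene the accessible regions called by ATAC-seq were collected in a window of the gene with 50 kb on either side. These windows held 41 of the 70575 merged regions of the whole series. The windows lay, in mm9, on chromosome 7 from 19838000 to 19946000 (Fosb), chromosome 5 from 32388000 to 32511000 (Fosl2), chromosome 4 from 94665000 to 94770000 (Jun), chromosome 8 from 87450000 to 87553000 (Junb) and chromosome 8 from 73171000 to 73274000 (Jund). A merged region joins the peaks of the 6 libraries that touch or overlap, and it was counted where it overlapped a window by at least 1 bp. The genes were chosen as a family, without a filter on their peaks, although earlier results of these data were known.

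ATAC-seq uses the transposase Tn5 to cut and tag DNA that is not covered by nucleosomes, so that sequenced fragments pile up at accessible sites. Libraries were prepared from microdissected dentate gyrus of single mice, all adult and 8 weeks old, after infection with adeno-associated virus (AAV), 3 animals with EYFP, a fluorescent protein used as the control, and 3 with cFos. All 6 animals therefore carried a virus. The labels do not say whether the cFos animals also received EYFP, nor which promoter or cell type drove the transgene. The strain label reads C57BL/6 for EYFP replicate 1 and C57BL/7 to C57BL/11 for the other libraries in order. The dissected tissue holds granule neurons together with interneurons and glia, and the peak lists do not separate them. Its cell type markers were not analysed here, because no mm9 gene annotation was used.

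AP-1 binds DNA as a pair of basic leucine zipper proteins. Jun, Junb and Jund can pair with one another or with a Fos family member, whereas Fosb and Fosl2, like Fos, need a Jun partner. Most of these genes are immediate early genes, transcribed within minutes of synaptic activity, and Jund is the member known for steady expression at rest. Jun is known for an AP-1-like site in its own promoter, through which Jun-containing dimers act on the gene. In the dentate gyrus, Fosb is known for a truncated product, deltaFosB, that builds up with repeated activity.

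The promoters of 3 of these genes are shown because they differ in that site and in base composition. They are RefSeq sequences on GRCm38.p6, 300 bases long and spanning the annotated start, printed 5′ to 3′ on the strand of the gene, and all 5 members had 1 entry in the table. Their coordinates cannot be set against the mm9 coordinates of the peaks. Capitals mark a match to a searched motif.
Jun (chr4:95052173-95052472, minus strand): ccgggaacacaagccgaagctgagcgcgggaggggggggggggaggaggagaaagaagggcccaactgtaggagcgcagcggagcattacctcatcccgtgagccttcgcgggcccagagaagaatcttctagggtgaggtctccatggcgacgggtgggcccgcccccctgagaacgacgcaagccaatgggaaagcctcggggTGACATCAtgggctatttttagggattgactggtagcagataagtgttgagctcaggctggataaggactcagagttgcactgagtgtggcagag
Fosb (chr7:19309996-19310295, minus strand): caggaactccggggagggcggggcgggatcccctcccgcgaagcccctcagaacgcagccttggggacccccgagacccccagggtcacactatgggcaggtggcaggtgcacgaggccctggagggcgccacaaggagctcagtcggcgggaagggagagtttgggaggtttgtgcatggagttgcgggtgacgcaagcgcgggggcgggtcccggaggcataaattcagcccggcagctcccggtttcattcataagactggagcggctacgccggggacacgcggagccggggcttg
Jund (chr8:70697489-70697788, plus strand): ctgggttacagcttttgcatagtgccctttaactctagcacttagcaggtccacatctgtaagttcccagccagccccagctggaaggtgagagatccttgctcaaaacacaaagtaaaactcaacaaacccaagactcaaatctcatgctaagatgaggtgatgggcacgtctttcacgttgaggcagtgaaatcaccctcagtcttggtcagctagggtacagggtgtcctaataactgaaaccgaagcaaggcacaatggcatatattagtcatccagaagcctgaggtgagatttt

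Both strands were searched for the AP-1 site (TGACTCA or its complement TGAGTCA), the cyclic AMP response element (TGACGTCA), the AP-1-like site TGACATCA and the CArG box bound by serum response factor. Jun held 1 match, the AP-1-like site, whose first base lies 45 bases upstream of the start. The other 4 promoters held none of the 4 motifs in this stretch. Among all 32851 promoters of the table, 3.62% held TGACATCA, 5.2% the AP-1 site, 1.79% TGACGTCA and 1.63% the CArG box. GC content was 68.3% for Fosb, 65.3% for Junb and 64.7% for Fosl2, against a median of 52.7% over all promoters, and Jun also lay above that median. The Jund entry, at 46.7%, was the one below that median. RefSeq lists 2 curated transcripts for Jund and 2 for Fosb, and only 1 start was given for each. The stretches printed for Jund and Fosb may therefore not be the starts in use in this tissue.

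The deposited data were a list of scored peaks for each library, without read counts, so the read depth is unknown and a missing call does not show closed chromatin. The lists held from 29896 to 44285 peaks in EYFP and from 23986 to 34690 in cFos libraries on chromosomes 1 to 19 and X. The cFos lists covered less sequence, 0.649 times the EYFP mean, and their median peak width was 437 to 479 bp against 553 to 569 bp. EYFP replicate 2 had the longest list. The score of a peak is the authors' own, reaches 3100 in every list, and is not comparable between libraries with certainty. It is therefore given together with its percentile, the rank of the peak within its own list. With 3 libraries against 3, the two-sided exact permutation test used for each value below cannot give a p under 0.1. So no difference here could pass a threshold of 0.05. The replicates give only the spread between libraries, each from a single mouse, and the libraries also differ in list length.

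Every member had an accessible site at the gene in both groups. The gene interval, which is the window without its 50 kb flanks, carried at least 1 peak in all 6 libraries for each of the 5 genes. By the percentile of the strongest peak over that interval, averaged over the 6 libraries, the order was Jun (95.6 ± 1.41, SD, n = 6), Jund (85.1 ± 6.37), Fosl2 (74.7 ± 7.60), Fosb (64.2 ± 14.1) and Junb (51.8 ± 13.8). Jun ranked above Jund in all 6 libraries. Jund ranked above Fosl2, and Fosl2 above Fosb, in 5 of 6 each. Fosb and Junb did not differ beyond their spread, with Fosb above Junb in 3 of 6.

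**Figure D1:**
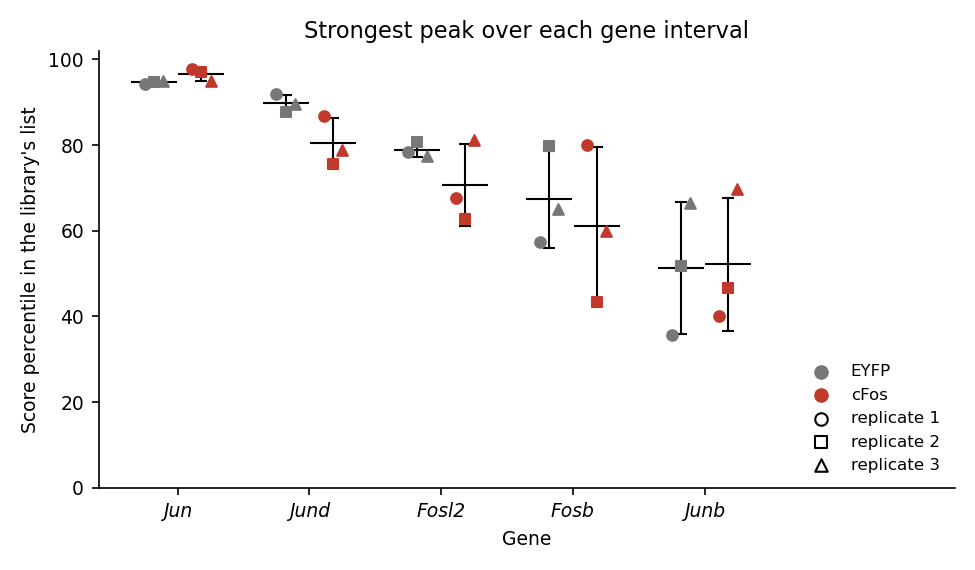
Score percentile of the strongest peak over each gene interval (vertical axis, rank within the library's own list from 0 to 100) for the 5 genes, with grey points for EYFP and red points for cFos libraries, marker shape for the replicate number, and black bars for mean ± SD (n = 3). Jun lies above 94 in every library, and Jund is the gene whose cFos points, from 75.7 to 86.8, all lie below its EYFP points, from 87.7 to 91.8.

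Jun, a partner of Fos proteins, had the strongest and broadest site at the gene among the 5 members in each of the 6 libraries. A single region from 94716514 to 94720678, 4165 bp wide, overlapped the gene interval (94715000 to 94720000) and ran 678 bp past its higher edge, which is the 5′ side because Jun is on the minus strand. Its scores were 379, 498 and 437 in EYFP replicates 1 to 3 and 494, 468 and 443 in cFos replicates 1 to 3. These scores overlapped between the groups. The percentiles were 94.3, 94.7 and 94.9 in EYFP and 97.7, 97.0 and 94.8 in cFos. The mean was 94.7 ± 0.330 in EYFP and 96.5 ± 1.502 in cFos (SD, n = 3 each), a difference of 1.86 points with overlapping groups (two-sided exact permutation p = 0.2). On equally long lists the difference was 3.59 points (exact permutation p = 0.3). The covered width of the site also overlapped between groups. EYFP peaks covered 4058, 4057 and 3818 bp of the region, whereas cFos peaks covered 1968, 2617 and 3838 bp, the first of these split into 2 peaks. cFos replicate 3 had a site as wide as the EYFP libraries, and the other cFos libraries had narrower ones.

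The Jun window also held the region with the clearest separation of the groups. It lay on the other side of the gene, 46.4 kb beyond the 3′ side of the interval, on chromosome 4 from 94667897 to 94668591 (mm9), and was 695 bp wide. Every library called it. The scores were 65.5, 141 and 99.5 in EYFP replicates 1 to 3 and 253, 317 and 330.3 in cFos replicates 1 to 3. The lowest cFos score thus exceeded the highest EYFP score. The percentiles were 27.4, 63.7 and 53.7 in EYFP and 87.6, 92.2 and 90.4 in cFos. The mean percentile was 48.3 ± 18.8 in EYFP and 90.04 ± 2.31 in cFos (SD, n = 3 each), a difference of 41.8 points (exact permutation p = 0.1, two-sided, and 0.657 after Benjamini-Hochberg adjustment over all common regions).

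Common regions, those called by all 6 libraries, numbered 11837 in the series, and only 10 of them had a larger difference toward cFos than this Jun flank region. Of all common regions, 2.03% ranked higher in every cFos library, and in the 5 windows this region was the one of 11 that did. By raw score it was again the one, against 0.853% of all common regions. When each list was shortened to its 23986 highest-scoring peaks, so that all were equally long, the percentiles averaged 26.3 ± 14.6 in EYFP and 88.1 ± 3.49 in cFos (SD, n = 3 each). That difference, 61.9 points, was the largest of the 10520 regions common to the shortened lists, of which 6.29% ranked higher in every cFos library. Leaving out any 1 library kept the groups apart, which had to follow, because percentiles are ranks within each library's own list. Above the pooled median score the region was no longer called in all 6 libraries. The peak was not narrower in the cFos libraries, covering 559, 581 and 695 bp against 380, 553 and 555 bp. This runs opposite to the width of the lists as a whole, whereas at the Jun gene itself the widths overlapped between groups. The share of common regions with wider peaks in every cFos library is not given here, and this region was picked by its score percentiles.

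The region lay 2897 bp inside the edge of the window. In the GRCm38.p6 gene table the next gene on that side of Jun is the long non-coding RNA Gm12694, and on the 5′ side it is Junos, another long non-coding RNA. Distances to either in mm9 were not measured, so whether the region belongs to Jun was not tested. A neighbouring region 39.6 kb from the interval on the same side, from 94674745 to 94675354, did not share the pattern. It scored 135 and 163 in EYFP replicates 1 and 2 and 52.7 and 84.1 in cFos replicates 2 and 3, and the other libraries did not call it. On the 5′ side a region from 94765223 to 94765986 was called in all 3 EYFP libraries, with scores of 86.9, 82.4 and 77.7, and in cFos replicate 1 alone of the cFos group, with a score of 90.65.

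**Figure D2:**
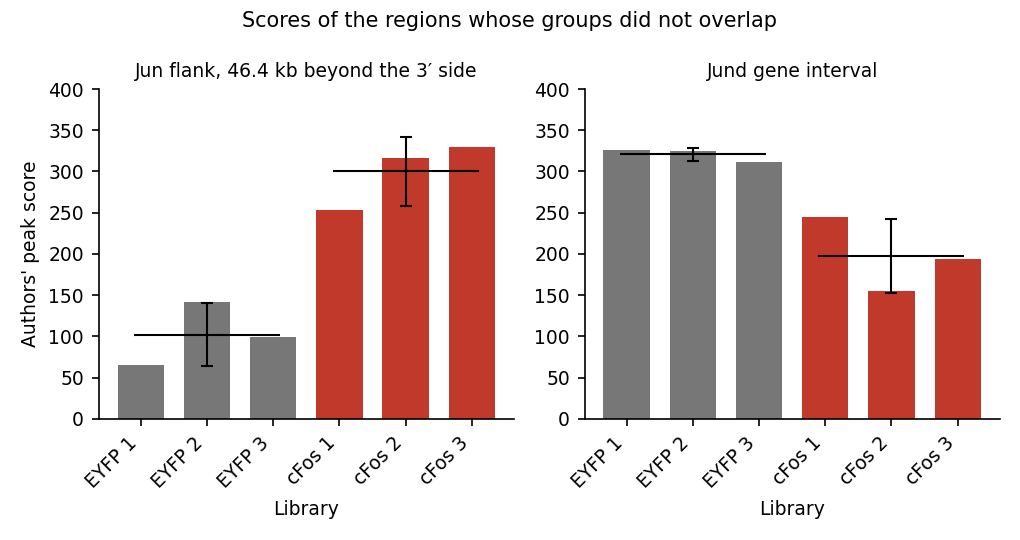
The authors' peak score (vertical axis, no unit given) in each library for the Jun flank region, left, and the Jund gene region, right, with grey bars for EYFP, red bars for cFos and black lines for group mean ± SD (n = 3). The Jun flank region scores 253 to 330.3 with cFos against 65.5 to 141 with EYFP, and the Jund region scores 155 to 244 with cFos against 312 to 325 with EYFP.

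Jund, the member known for steady expression, showed the opposite order at the gene itself. Its region, on chromosome 8 from 73222046 to 73224298, began 1046 bp inside the 5′ edge of the gene interval (73221000 to 73224000) and ended 298 bp past the 3′ edge. The scores were 325, 325 and 312 in EYFP replicates 1 to 3 and 244, 155 and 193 in cFos replicates 1 to 3. The EYFP libraries were close to one another, and all 3 cFos libraries lay below them. The mean percentile was 89.7 ± 2.05 in EYFP and 80.5 ± 5.76 in cFos (SD, n = 3 each), a difference of -9.23 points (two-sided exact permutation p = 0.1, adjusted over all common regions 0.657). Such an order was common in the series, since 13.2% of common regions ranked higher in every EYFP library, and 28.1% had a difference further toward EYFP. By raw score the background was 15.1%, and Jund was again the one of the 11. On equally long lists, where 6.76% of common regions ranked higher in every EYFP library, none of the members did, and at Jund the groups overlapped, at 89.8, 77.4 and 85.6 in EYFP and 85.4, 75.7 and 69.5 in cFos (mean difference -7.43, two-sided exact permutation p = 0.2). Peaks covered 1267, 2253 and 2178 bp of the region in EYFP and 1250, 910 and 1209 bp in cFos.

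In 5 of 6 libraries the strongest site of the Jund window was not at Jund, EYFP replicate 1 being the exception. A region from 73196564 to 73198401, 22.6 kb from the interval on the 5′ side, scored 287, 531 and 464 in EYFP and 335, 273 and 500.5 in cFos libraries. Its mean percentile, 93.5 ± 3.56 in EYFP and 92.9 ± 3.36 in cFos (SD, n = 3 each), differed by -0.64 points, less than the spread within either group (two-sided exact permutation p = 1). The third common region of the window, from 73183423 to 73184054, was weak except in EYFP replicate 2, which scored 224 against 58.0 and 60.8 in the other EYFP libraries and 56.1 to 75.5 in the cFos libraries.

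Fosl2, which encodes Fra-2, had the emptiest surroundings. Its window held 2 regions in 123 kb, or 1.63 per 100 kb, against 12.0, 11.7, 7.77 and 5.71 for Fosb, Junb, Jund and Jun. Over the series, fixed bins of 100 kb held a mean of 2.67 and a median of 2 regions. The bins count region centres, whereas a window counts every region that overlaps it, so the 2 measures differ. One region of the Fosl2 window, from 32437134 to 32439016, spanned the 5′ edge of the gene interval at 32438000 and was called in every library. The scores were 184, 238 and 186 in EYFP replicates 1 to 3 and 127, 112 and 213 in cFos replicates 1 to 3. cFos replicates 1 and 2 lay below all EYFP libraries, and cFos replicate 3 lay among them. The mean percentile was 78.8 ± 1.68 in EYFP and 70.6 ± 9.55 in cFos (SD, n = 3 each), a difference of -8.19 points (two-sided exact permutation p = 0.4). It was -2.11 points on equally long lists (exact permutation p = 0.5) and -21.5 among peaks above the pooled median score (exact permutation p = 0.3). The peak was narrower in every cFos library, covering 867, 978 and 945 bp against 1425, 1276 and 1707 bp. Peaks were narrower in the cFos lists as a whole, and the share of common regions separated by width is not given here. The other region, from 32509176 to 32509613, was a weak call of EYFP replicate 2 alone with a score of 55.3.

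Fosb, the gene of FosB and deltaFosB, carried 2 separate sites within the gene interval (19888000 to 19896000) and neither was called in all libraries. The one at the 5′ edge, from 19895331 to 19895997, ended 3 bp inside the interval, on the side of the start of this minus-strand gene. It scored 107 and 66.0 in EYFP replicates 1 and 3, and 54.8 and 68.9 in the cFos replicates of the same numbers. Replicate 2 of either group lacked a call. The second, inside the interval from 19893158 to 19894488, was the stronger, with scores of 231 and 128 in EYFP replicates 2 and 3 and 187, 78.1 and 112 in cFos replicates 1 to 3. It was not called in EYFP replicate 1. In the libraries that called both, the inner site scored higher than the site at the 5′ edge. The strongest peak over the interval had a mean percentile of 67.3 ± 11.4 in EYFP and 61.1 ± 18.4 in cFos (SD, n = 3 each), a difference of -6.20 points that is smaller than the spread within each group (two-sided exact permutation p = 0.8). On equally long lists it was 0.71.

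The Fosb window was dense in weak sites, with 13 regions of which 1 was common to all libraries. That one, from 19929777 to 19931049, lay 33.8 kb from the interval on the 5′ side, the side of Ercc1, a DNA repair gene. Its scores were 127, 237 and 162 in EYFP replicates 1 to 3 and 87.2, 84.8 and 163 in cFos replicates 1 to 3. cFos replicate 3 lay among the EYFP libraries and the other cFos libraries lay below them, as at Fosl2 (mean percentile 73.0 ± 7.53 in EYFP and 57.5 ± 14.3 in cFos, SD, n = 3 each, exact two-sided permutation p = 0.3). A region from 19944520 to 19945516 near the window's edge was called in all cFos libraries, with scores of 64.99, 72.97 and 74.2, and in EYFP replicates 1 and 2, with scores of 53.4 and 79.5. On equally long lists it was a cFos-only call, the 1 such call in the windows, against 0.937% of all regions of those lists. The shortening had removed the EYFP peaks, of which that of replicate 2 scored higher than every cFos peak.

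Junb, an immediate early gene whose product can restrain Jun, had the lowest mean percentile at the gene, although it ranked below Fosb in only 3 of 6 libraries. The interval (87500000 to 87503000) held 2 adjacent regions. The one at the 5′ edge, spanning 87501379 to 87503089, had scores of 73.8, 108 and 133 in EYFP replicates 1 to 3 and 74.7, 82.2 and 143 in cFos replicates 1 to 3. The groups overlapped on the full lists, with mean percentiles of 51.4 ± 15.4 in EYFP and 52.2 ± 15.5 in cFos (SD, n = 3 each) and a difference of 0.78 points (two-sided exact permutation p = 1). On equally long lists the percentiles were 19.9, 11.1 and 53.9 in EYFP and 33.3, 46.7 and 56.2 in cFos libraries. The difference there was 17.1 points, with groups that still overlapped (exact two-sided permutation p = 0.3). The one at the 3′ edge, from 87499937 to 87501259, was weaker, with scores of 57.0, 82.9 and 63.9 in EYFP. Of the cFos libraries, replicates 1 and 3 called it, with scores of 67.7 and 78.7, and replicate 2 did not.

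A site that scored higher than the one at Junb in 5 of 6 libraries flanked it on the side of Hook2, which encodes a microtubule linker protein and is the next gene in the table. This region, from 87509171 to 87510562, 6.17 kb from the interval, scored 101, 251 and 150.2 in EYFP and 137, 93.2 and 107 in cFos libraries. Its mean percentile was 69.1 ± 13.6 in EYFP and 60.6 ± 8.85 in cFos (SD, n = 3 each; exact two-sided permutation p = 0.4). A second, from 87513695 to 87514806, had mean percentiles of 66.0 ± 8.12 and 49.2 ± 18.97 (two-sided exact permutation p = 0.2). Both overlapped between groups. Another common flank region, from 87550355 to 87551225, differed by 5.75 points toward cFos, with percentiles from 2.58 to 62.4 in EYFP and from 23.4 to 62.4 in cFos libraries (two-sided exact permutation p = 0.8). On the other side, toward the peroxiredoxin gene Prdx2, no region was called in all 6 libraries.

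**Figure D3:**
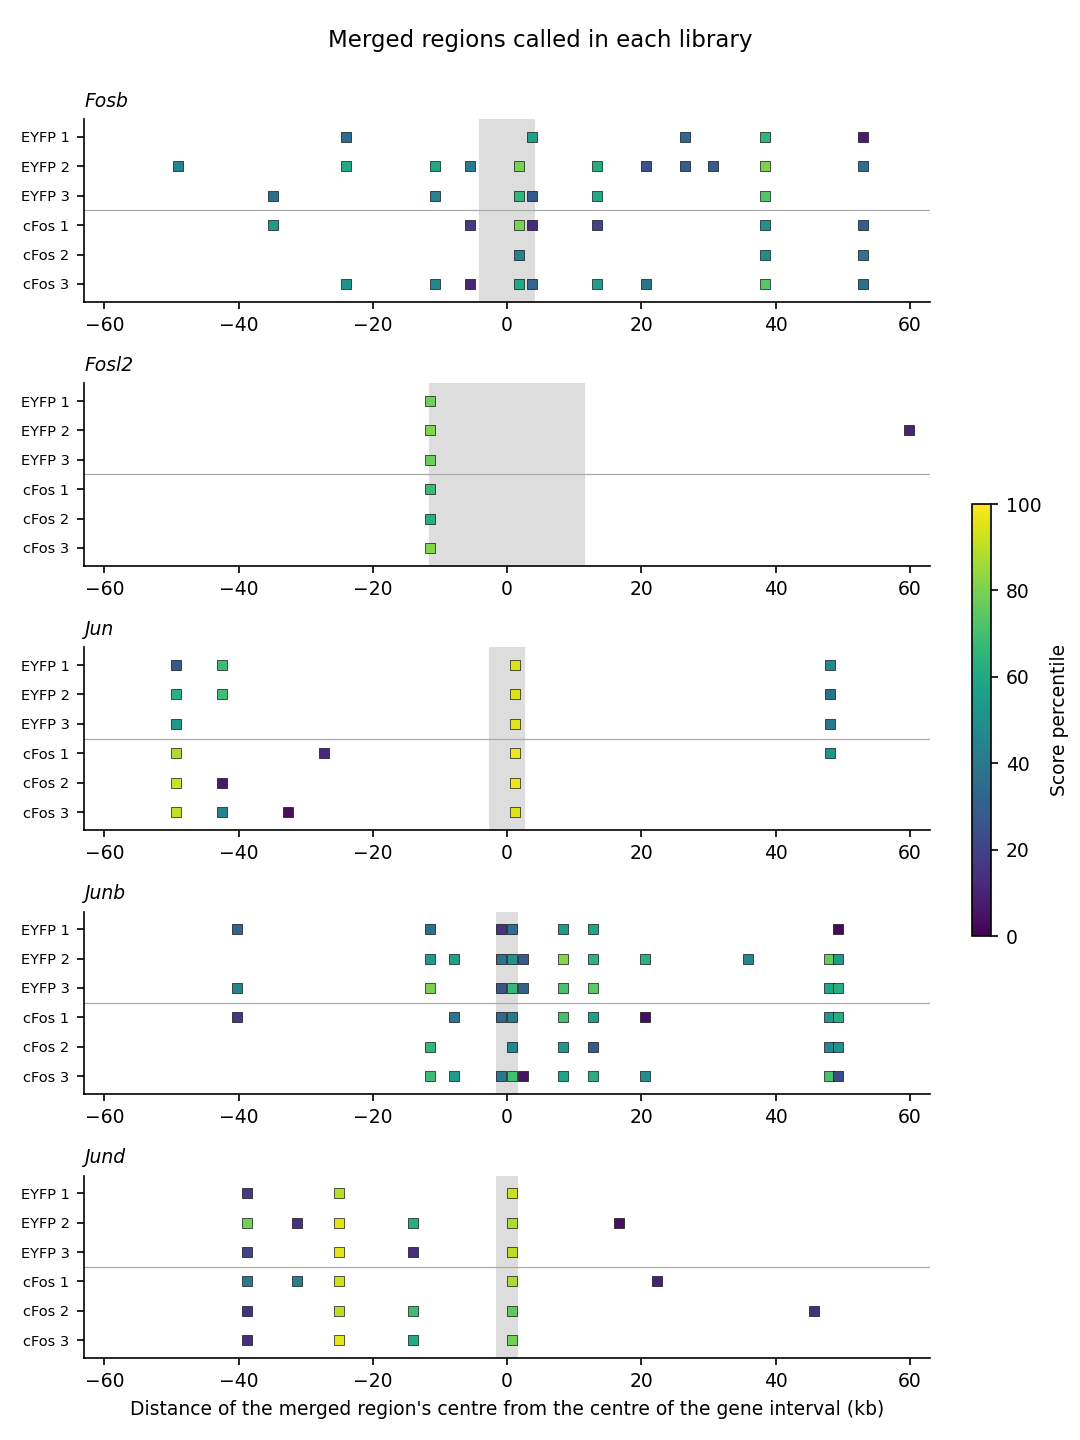
Merged regions in the 5 windows, 1 panel per gene, placed by the distance of their centre from the centre of the gene interval (horizontal axis, kb, increasing with genome position) with 1 row per library and squares coloured by score percentile from 0 (dark) to 100 (yellow), and the gene interval in grey. Jun shows yellow squares over the gene in every row and, near its left edge, a column that is brighter in the 3 cFos rows than in the 3 EYFP rows, while the Fosl2 panel holds 2 regions.

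Across the family, 11 of the 41 regions (26.8%) were called in all 6 libraries, against 16.8% of all merged regions. Of these 11, 4 lay over gene intervals (Jun, Jund, Fosl2 and Junb) and 7 in flanks. A single library called 9 of the 41 (43.7% of regions did so in the series), and EYFP replicate 2, which had the longest list, supplied 5 of those. Its share of such regions over the series is not given here. No region of the windows was called in 3 of 3 cFos and 0 of 3 EYFP libraries, which held for 0.449% of all regions, nor in 3 of 3 EYFP and 0 of 3 cFos libraries, which held for 1.97%. Counts of 0 among 41 are near those backgrounds. They come from presence alone, without a test per region. In the percentile comparison no common region of the series had an adjusted p under 0.657, and an unadjusted p under 0.05 could not occur.

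On the full lists, whose lengths differ between libraries, most of the 11 common regions had a lower mean percentile in cFos. The mean percentile was lower in cFos for 7 of the 11 and for 73.6% of all common regions. The median difference was -8.19 points for the 11 and -3.23 for all. The share with a lower mean in cFos is not given for equally long lists, so whether this direction depends on list length was not tested. By a different measure, 6.29% of common regions ranked higher in every cFos library on equally long lists, and 6.76% in every EYFP library. On the full lists these shares were 2.03% and 13.2%. The windows held 1 and 0 such regions on equally long lists. The Jun flank region was the exception in size, outside the range from -20.5 to 5.51 points between the 10th and 90th percentile of all common regions. The other member above that range was the Junb flank region at 5.75. None lay below it.

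**Figure D4:**
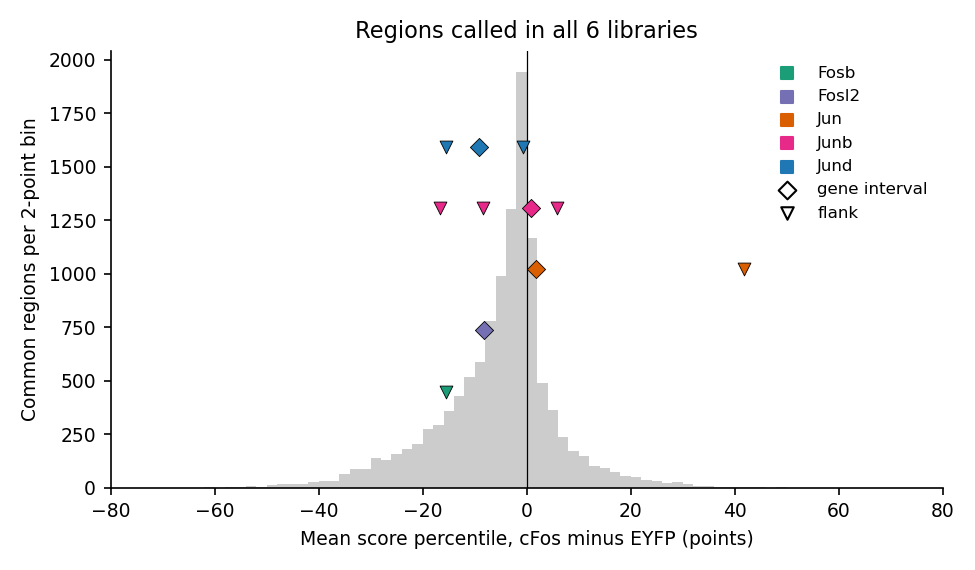
Difference in mean score percentile, cFos minus EYFP (horizontal axis, points), for all 11837 common regions (grey histogram, counts per bin of 2 points on the vertical axis) and for the 11 common regions of the windows (coloured marks, diamonds over gene intervals and triangles in flanks, whose height only separates the genes). The Jun flank region lies at 41.8, and the other 10 marks lie between -16.8 and 5.75.

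The length of sequence under peaks in each window was lower on average in cFos libraries for all 5 genes, as in the lists as a whole. It was 0.930 ± 0.0570 kb in cFos and 1.62 ± 0.165 kb in EYFP at Fosl2, where the groups did not overlap (SD, n = 3 each; exact two-sided permutation p = 0.1). For the other genes the groups overlapped, with 2.95 ± 1.36 against 4.96 ± 2.01 kb at Fosb, 4.07 ± 1.07 against 5.44 ± 0.291 kb at Jun, 5.38 ± 1.71 against 7.82 ± 2.70 kb at Junb and 3.19 ± 0.320 against 4.37 ± 1.51 kb at Jund (cFos against EYFP; SD, n = 3 each; exact two-sided permutation p = 0.3, 0.2, 0.2 and 0.3). The ratios of cFos to EYFP means ran from 0.576 at Fosl2 to 0.748 at Jun, around the 0.649 of the whole lists. Peak width was lower throughout the cFos lists, and its part in these values was not tested beyond setting all peaks to 400 bp, which leaves only peak number and overlap. The groups then overlapped at Fosl2 too, with a difference of -0.133 kb (exact two-sided permutation p = 1). The difference was -0.4 kb at Fosb and -0.267 kb at Junb, and it changed sign at Jun and Jund, to 0.133 kb each.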

How the data were processed

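ATAC-seq peak lists of 6 libraries (3 EYFP, 3 cFos, grouped by sample title) were used. The submitters' processing notes name Bowtie2 and the build mm9. Each list deposited by the authors holds positions, peak names that start with MACS, and a score. Not given in the sources used here are what the score means, the caller's version, threshold and control, and how duplicates or Tn5 offsets were handled. Peak number and width depend on read depth.

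Windows were those of the rule, parsed as 1-based. Gene intervals are windows without their 50 kb flanks, rounded to whole kb, since no mm9 annotation was used. Strand, neighbours and promoters came from RefSeq tables on GRCm38.p6. Peaks on chromosomes 1 to 19 and X were merged where they touched. A library called a region with an overlap of 1 bp and took its highest peak there. Percentiles are ranks within a list. Group means were compared by two-sided exact permutation over 20 assignments, and adjustment was by Benjamini-Hochberg over 11837 common regions. The counting was tested on simulated data. The regions named are all those over gene intervals, the flank region of highest mean percentile in each window, and those whose groups separated; other flank regions were picked once their values were known. The genes, tests and alternatives were chosen with earlier results of these data known. Other AP-1 genes, markers and genes of similar pattern were not analysed here. Software was scipy 1.17.1, matplotlib 3.10.9, pandas 2.3.3 and numpy 2.4.6 under Python 3.11.15.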

Additional observations from a re-analysis of the deposited data

How the results depend on the processing

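With 3 libraries per group no exact p could fall under 0.05, so direction and counts are compared. The Jun percentile difference stayed positive, and those of Jund and Fosl2 negative, under all alternatives run for them, including raw scores, which were added after seeing the data. Not all of these alternatives could change a sign. Setting peaks to 400 bp and blocking by replicate number gave the same differences again. At Jund, where the groups did not overlap, leaving out a library could not change the sign. The size of the differences moved: above the pooled median score they were 3.08 at Jun, -21.5 at Jund and -21.5 at Fosl2, and on equal-length lists 3.59, -7.43 and -2.11. The direction at Fosb changed on equal-length lists (0.71) and without cFos replicate 2 (2.67). At Junb it changed without EYFP replicate 1 (-7.04), without cFos replicate 3 (-7.99) and for raw scores (-5.17 score units). With every peak set to 400 bp, covered length changed sign at Jun and Jund (0.133 kb each). Leaving out each library in turn gave percentile differences of -15.7 to 2.67 at Fosb, -13.5 to -4.31 at Fosl2, 1.24 to 2.69 at Jun, -7.99 to 8.36 at Junb and -12.4 to -6.83 at Jund. No value could be had for Fosb and Junb above the pooled median score of 93.41, because a library lost its peak.

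Regions called in all libraries numbered 4 above the pooled median score, 2 with at least 50% of the region covered and 6 with 20 kb flanks, against 11. Over the series the shares were 23%, 8.63% and 16.8% in these settings. Regions ranked higher in every cFos library numbered 0 above that score and 0 with 20 kb flanks, which leave out the Jun flank region. Of all common regions, 0.8% and 2.03% did so in these settings. The number was 1 to 2 when libraries were left out. The second was the Jun gene region, without EYFP replicate 3 or cFos replicate 3. In those settings 3.49% and 3.2% of all common regions ranked higher in every cFos library. Regions ranked higher in every EYFP library numbered 0 on equal-length lists and 0 with 50% covered, a setting that left only 2 common regions in the windows. Over the series, 6.76% and 11.3% of common regions did so. When libraries were left out the number was 1 to 4: 3 without EYFP replicate 1, 2 without cFos replicate 1 and 4 without cFos replicate 3, where 26.5%, 18.9% and 28.5% of all common regions did so. EYFP-only regions numbered 2 with 50% covered, where narrow peaks count as no call, and 0 to 1 when libraries were left out. The series had 3.62% with 50% covered, and 4.65% without EYFP replicate 3 and 3.11% without cFos replicate 1, the settings that gave 1. A cFos-only region, 1, appeared on equal-length lists, on chromosome 7 from 19944577 to 19945108 in the Fosb window. There the shortening had removed the EYFP peaks, and 0.937% of all regions were cFos-only.

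Correlations of same-numbered deviations were -0.0148, -0.00774 and 0.00300. Values for differently numbered libraries are not given here, so whether the replicate numbers mark a pairing was not settled. With the replicate number as a block the differences are the same, for example 1.86 points at Jun (exact sign-flip p = 0.5) and -9.23 at Jund (exact p = 0.25, the smallest possible).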
